A study of Mus musculus with 8 samples.

Results

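The chitinases and chitinase-like proteins of mouse forepaw skin were examined through 5 genes: Chil4, Chil3, Chil1, Chia1 and Chit1. They were chosen by gene symbol as members of 1 protein family, with the difference between Krt16 null and wild-type (WT) skin already in view, in which Chil4 and Chil3 stood out. Their levels in that comparison are therefore given as a description, without p-values. All 5 were represented, each by 1 probe set, among the 30683 genes that could be named on the array.

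RNA was taken from the forepaw skin of 8 mice of the C57Bl/6 strain, aged 8 weeks, with 1 array per mouse. The mice were 4 Krt16 null animals and 4 Krt16 WT littermates, balanced by sex (2 males, 2 females per genotype). The null allele came from targeted embryonic stem cells and carries bacterial LacZ in place of the coding sequence in every cell. Every null sample was labelled as a lesion and every WT sample as normal skin, so loss of Krt16 and the presence of a lesion cannot be told apart.

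Chitinases of this family, glycosyl hydrolase family 18, cut chitin, the polymer of N-acetylglucosamine in fungal cell walls, arthropod cuticle and helminths, which mammals do not make. Chia1 (acidic mammalian chitinase, older name Chia) and Chit1 (chitotriosidase) are the active enzymes. Chil1 (older name Chi3l1), Chil3 (Chi3l3) and Chil4 (Chi3l4) are secreted lectins that keep the enzyme fold but lack the catalytic residue. Chil3 and Chil4, also called Ym proteins, are close duplicates found in rodents. Chil3 is widely used as a marker of macrophages activated by type 2 cytokines and is also made by neutrophils and their precursors, while Chil4 is better known from epithelia.

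The start regions of the 3 chitinase-like genes are shown because Chil3 and Chil4 were high in the same arrays and Chil1 less so. Each window is the RefSeq sequence on GRCm38.p6 from 250 bases before to 50 bases after the annotated start, matched by symbol, and all 5 genes had 1 window. Chil3 lies at chr3:106167515-106167814 and Chil4 at chr3:106219430-106219729, both on the minus strand, and Chil1 at chr1:134181906-134182205 on the plus strand. Capitals mark TATAAA, the core of a TATA box, and TTCNNNGAA, the half-site pair read by STAT factors.
Chil3: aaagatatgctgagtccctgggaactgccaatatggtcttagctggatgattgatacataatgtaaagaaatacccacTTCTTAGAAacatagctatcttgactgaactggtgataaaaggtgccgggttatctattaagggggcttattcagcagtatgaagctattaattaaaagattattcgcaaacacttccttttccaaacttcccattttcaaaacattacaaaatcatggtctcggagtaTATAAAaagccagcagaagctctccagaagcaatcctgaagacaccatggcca
Chil4: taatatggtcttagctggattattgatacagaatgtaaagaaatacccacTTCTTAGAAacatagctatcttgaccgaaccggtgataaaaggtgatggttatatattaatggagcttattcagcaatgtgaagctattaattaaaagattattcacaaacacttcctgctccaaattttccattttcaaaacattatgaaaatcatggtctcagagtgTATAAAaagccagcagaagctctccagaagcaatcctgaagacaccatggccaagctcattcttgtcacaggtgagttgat
Chil1: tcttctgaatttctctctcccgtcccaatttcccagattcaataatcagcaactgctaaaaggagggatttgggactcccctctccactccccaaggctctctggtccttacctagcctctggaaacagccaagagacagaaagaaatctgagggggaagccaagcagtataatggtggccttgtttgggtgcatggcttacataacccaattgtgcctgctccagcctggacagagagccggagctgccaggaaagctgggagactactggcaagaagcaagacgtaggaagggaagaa

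Aligned with unpaired ends left uncounted, the Chil3 and Chil4 windows shared 251 of 273 columns (91.9%), with 20 substitutions and 2 gap columns. The other 9 pairs among the 5 genes, counted in the same way, shared 47.0% to 61.1%, the highest being Chil4 with Chia1. Both Ym genes held TTCTTAGAA and TATAAA. Counted from the annotated starts their places differed. In Chil4 TTCTTAGAA lay at -200 to -192 and TATAAA at -31 to -26, and in Chil3 at -172 to -164 and -3 to 3. Yet the 2 matches lay equally far apart in both windows, and the letters after TATAAA were the same to the end of the Chil3 window. The annotated starts thus fall at different points of the shared sequence. Searched on both strands, TTCNNNGAA occurred in 8.33% of 32544 distinct windows and TATAAA in 13.6%. Neither was found in the Chil1 window, TATAAA alone was found in that of Chia1, and the related spacing TTCNNNNGAA was in none of the 5 windows (6.98% of all). The other 3 patterns were also searched in the 5 windows. TGANTCA (AP-1, 7.79% of all) was in Chit1 alone, TTGCNNAA (C/EBP, 10.8%) in Chil4 alone, and GGGNNNNNCC (NF-kB, 51.0%) in Chil1, Chil3 and Chit1. The windows of the related genes Chil5 and Chil6 were searched too. That of Chil6 held TATAAA, TTCNNNGAA (as TTCCAGGAA and TTCTGTGAA) and TTGCNNAA, so TATAAA with TTCNNNGAA was not particular to the Ym genes. That of Chil5 held GGGAACTGCC, the same GGGNNNNNCC match as in Chil3. Matches of this kind describe the letters only.

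Values are the authors' RMA signals on a log2 scale, so a difference of 1 is a doubling of signal, and errors of means are SDs over 4 mice. The signal of 1 gene's probe set cannot be set against another's, because probes differ in brightness, and a bulk sample cannot tell fewer cells of a type from less RNA per cell. Median signals over all probe sets were 4.04 to 4.09 on the 8 arrays. Negative control probe sets had medians of 4.26 to 4.46 and 95th percentiles of 7.26 to 7.43, which give the background. Krt16 itself read 7.05 to 9.66 in WT and 6.83 to 6.99 in null arrays, and the difference of -1.45 (SE 0.44) was not called (limma, adjusted p = 0.0616). Krt16 was called without female WT 1 (-1.98, adjusted p = 0.000779), in males alone (-1.49, adjusted p = 0.0023) and with same-numbered mice as a replicate block (adjusted p = 0.0285). It was also called with array weights (adjusted p = 0.0212), with no sex term (0.0443) and, barely, over genes above the median level only (0.05 after rounding). Where its probes lie relative to the replaced sequence was not examined. The mean of 10 keratinocyte markers was 10.3 to 10.6 on the 8 arrays. Skeletal muscle markers were lower in null skin (8 of 10 called, where 5.98% of all genes were called lower).

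Chil4 showed the widest separation in the family. The WT males read 2.93 and 3.31 and the WT females 4.14 and 3.31. The null males read 10.54 and 10.52 and the null females 10.51 and 9.35. No WT array reached the negative control medians, and all null arrays lay above the 95th percentile of the controls. The means were 3.42 ± 0.51 in WT and 10.23 ± 0.59 in null skin (SD, n = 4), a difference of 6.81 (SE 0.32). This was the largest difference of all 30683 genes, and the gap between the lowest null and the highest WT array was 5.21. Since the WT signal lies in the background, the size of the difference is not exact.

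Chil3 followed the same arrangement on a smaller scale. Chil3 signals were 3.09 and 3.31 in WT males, and 5.47 and 3.17 in WT females. They were 8.59 and 8.32 in null males, and 8.40 and 7.59 in null females. The groups were apart by 2.12, and the lowest null array was again female null 2, as for Chil4. Female WT 1 was the only WT array above the negative control medians. The means were 3.76 ± 1.14 and 8.22 ± 0.44 (SD, n = 4), a difference of 4.47 (SE 0.49) and the 9th largest of all genes. Without female WT 1 the other 3 WT arrays gave 3.19 ± 0.11, and the difference was 5.08. Probes designed for Chil3 and Chil4 target close duplicates, and how far the signals of the 2 probe sets are shared was not tested.

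Chil1, a glycoprotein lectin of macrophages, chondrocytes and inflamed epithelia, differed less. In WT skin it read 4.69 and 5.75 (males), then 4.94 and 5.09 (females). In null skin it read 6.18 and 7.20 (males), then 6.88 and 6.11 (females). The groups did not overlap, but only 0.36 separated female null 2, the lowest null array, from male WT 2, the highest WT array. The means were 5.12 ± 0.45 and 6.59 ± 0.54 (SD, n = 4), a difference of 1.48 (SE 0.28) with rank 101 among all genes. All 8 arrays lay above the negative control medians and under the controls' 95th percentile. Unlike the Ym genes, Chil1 in female WT 1 was within the range of the other WT arrays.

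**Figure D1:**
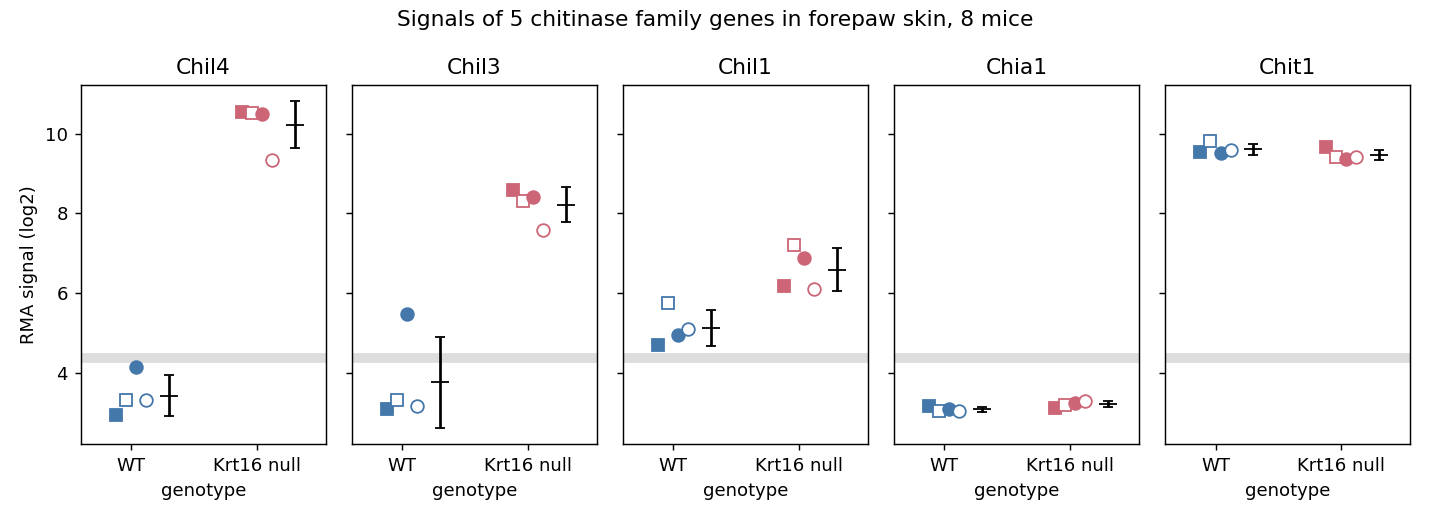
RMA signal (log2, vertical axis) of Chil4, Chil3, Chil1, Chia1 and Chit1 in WT and Krt16 null mice. Squares are males, circles females, filled symbols mouse 1 and open symbols mouse 2 of each sex and genotype; black bars are the mean ± SD of 4 mice, and the grey band spans the negative control medians of 4.26 to 4.46. Null and WT arrays are apart for Chil4, Chil3 and Chil1 and overlap for Chia1 and Chit1.

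The 2 active chitinases did not show this separation. Chia1, an enzyme of stomach and lung, read 3.04 to 3.17 in WT and 3.11 to 3.28 in null arrays, and no array reached the negative control medians. Its difference was 0.13 (SE 0.06, 95% confidence interval -0.0050 to 0.26), with overlapping groups. A level of Chia1 above background was not detectable on these arrays. Chit1, an enzyme best known from macrophages, was bright in both genotypes, at 9.53 to 9.81 in WT and 9.36 to 9.66 in null arrays. Its groups overlapped, with means of 9.61 ± 0.13 and 9.47 ± 0.13 (SD, n = 4) and a difference of -0.15 (SE 0.08, 95% confidence interval -0.32 to 0.026). Differences of Chit1 beyond these bounds were therefore not seen, while smaller ones in either direction lie inside the interval.

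In the fit across all genes, 3 of the 5 members (Chil4, Chil3 and Chil1) were called higher in null skin and none lower, and 2 were not called. Of all genes, 7.04% were called higher and 5.98% lower, and in 10.1% every null array lay above every WT array, as in the same 3 members. These counts repeat the comparison that brought the family forward and lend it no further support. All 3 calls held when each array was left out in turn. With only the 2 null and 2 WT females, Chil3 (3.68) and Chil1 (1.48) were not called, and with only males Chil1 was not (1.47). A choice of 1 sex leaves 4 arrays in the fit.

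Sex was not part of the comparison that chose the family, so its effects were tested. In males Chil4 differed between genotypes by 7.41 (SE 0.38) and in females by 6.21 (SE 0.38). The female effect was smaller by 1.20 (SE 0.53), with a 95% confidence interval of -2.43 to 0.023 for female minus male, and it did not pass the test (limma interaction term, adjusted p = 0.973). The corresponding effects of Chil3 were 5.25 (SE 0.62) in males and 3.68 (SE 0.62) in females, a difference of -1.58 (SE 0.88, 95% confidence interval -3.60 to 0.45) that did not pass either (adjusted p = 0.973). In both genes female WT 1 was the highest WT array and female null 2 the lowest null array. Without female WT 2 the sex difference of Chil3 was -2.73, and without female WT 1 it was -0.43. Chil1 gave 1.47 and 1.48 (SE 0.43 each, adjusted p = 0.999 for the difference), and its interval of -1.38 to 1.40 is wide. Chia1 and Chit1 gave sex differences of 0.15 (SE 0.11) and -0.030 (SE 0.16). No member passed, where 0.00652% of all genes did. Nor did any member differ between females and males over both genotypes, with differences of -0.20 (SE 0.28) for Chil1 to 0.33 (SE 0.49) for Chil3 (adjusted p 0.967 to 1.0), where 0.0163% of all genes were called.

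**Figure D2:**
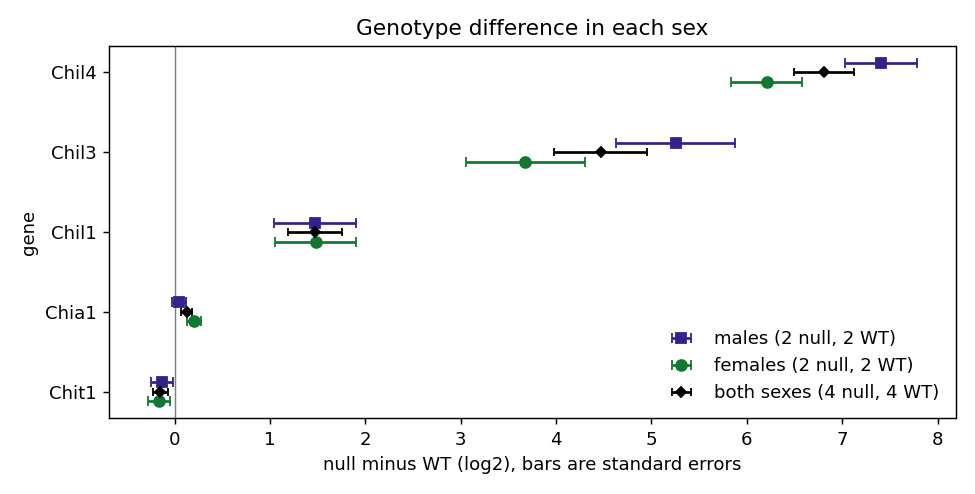
Difference between null and WT signal (log2, horizontal axis) for each gene in males, females and both sexes, with standard errors as bars. Chil4 and Chil3 have larger differences in males (7.41 and 5.25) than in females (6.21 and 3.68), though the sex difference did not pass the test, and Chil1 has nearly the same in both.

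Because Chil3 is also a product of neutrophils and macrophages, markers of these cells were read beside it. Of 12 neutrophil markers, 2 rose in null skin (Lcn2 by 1.49 and Cxcr2 by 0.435) and none fell. Their median difference was 0.075. The other 10 were not called and ranged from Retnlg (-0.19) to Csf3r (0.52). By comparison, 7.04% of all genes were called higher and 5.98% lower. The mean of the 12 markers, Lcn2 included, was 4.22 to 4.31 in 3 WT arrays, 5.79 in female WT 1 and 4.61 to 5.06 in the null arrays. Female WT 1 was the highest WT array for all 12 markers and the highest of all 8 arrays for 9 of them. Ngp and Ltf, granule protein genes of neutrophils, read 7.03 and 6.61 there against at most 5.37 and 5.24 in any other array. In this animal the raised neutrophil markers went with a Chil3 signal of 5.47 and a Chil4 signal of 4.14. Null arrays had lower neutrophil means than female WT 1 and higher ones than the other 3 WT arrays. Their Chil3 signals were 7.59 to 8.59 and their Chil4 signals 9.35 to 10.54. Female WT 1 was also the highest WT array for 13 of 15 macrophage, 6 of 7 mast cell and 9 of 10 muscle markers. The part of neutrophils or of these other cells in the Chil3 and Chil4 signals was not tested in either genotype.

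**Figure D3:**
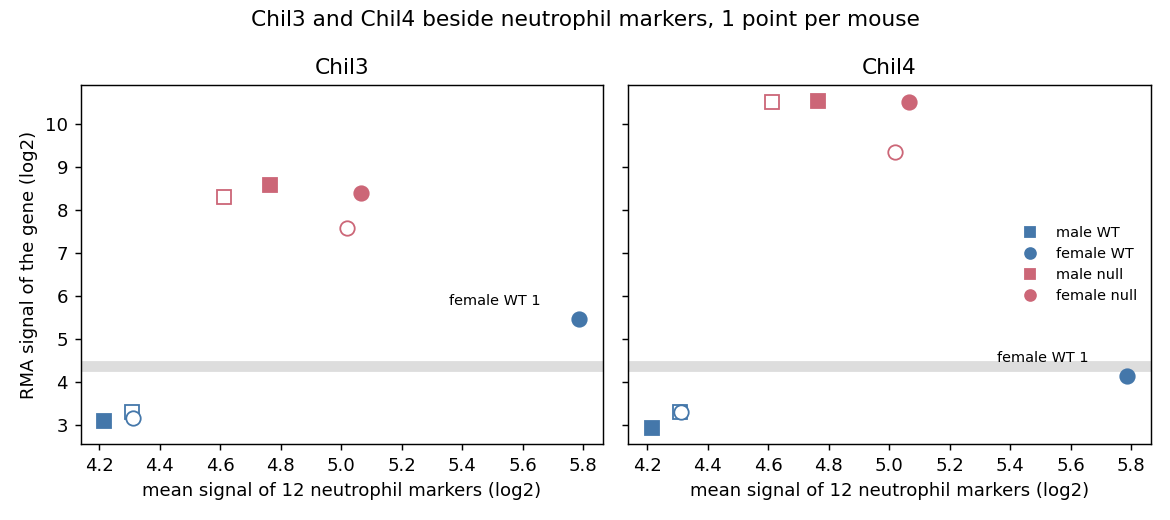
Signal of Chil3 (left) and Chil4 (right) on the vertical axis against the mean signal of 12 neutrophil markers on the horizontal axis, both log2, 1 point per mouse, with filled symbols for mouse 1 and open symbols for mouse 2. Female WT 1 has the highest neutrophil mean (5.79). All 4 null mice lie at 4.61 to 5.06, above the other WT mice (4.22 to 4.31), and have higher Chil3 and Chil4 than any WT mouse. The grey band spans the negative control medians.

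Macrophage and monocyte markers did not follow the Ym genes. Of 15, 1 rose (Itgam, an integrin also of neutrophils, by 0.71) and 3 fell (Cd163, C1qc and Mertk), with a median of -0.34 against 0.013 over all genes. Their mean spanned 5.81 to 6.30 in WT and 5.45 to 5.95 in null arrays. Of 7 Langerhans and dendritic cell markers 4 rose and none fell, led by Itgax (0.79), and their mean was 4.93 to 5.13 in WT and 5.21 to 5.42 in null arrays. Flt3, 1 of the 4 (0.23), lay under the negative control medians on every array. Over all genes 7.04% were called higher and 5.98% lower. All 5 measured eosinophil markers, among them Siglecf, Epx and Prg2, stayed under the negative control medians on every array, although 1 of them, Ccr3, was called higher. Of 7 mast cell markers 1 fell (Ms4a2, under the negative control medians on every array), and their median was -0.37. The others were not called and ranged from Cpa3 (-1.22, limma adjusted p = 0.0745) to Kit (0.08). Keratinocyte markers held 2 that rose and 1 that fell, with means of 10.3 to 10.5 in WT and 10.5 to 10.6 in null arrays. Among 7 cartilage and synovium markers, read because chondrocytes make Chil1, limma called none, and 0 had an unadjusted p under 0.05. Of 7 fibroblast markers 2 fell. What each of these cell types contributes to the family's signals was not tested.

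Other genes of glycosyl hydrolase family 18 moved little. Of 5, 2 rose and none fell, with a median difference of 0.16, where 7.04% of all genes were called higher and 5.98% lower. Chil5 read 2.88 ± 0.13 in WT and 3.32 ± 0.09 in null skin (0.44, SE 0.07, limma adjusted p = 0.0055), and Chil6 2.87 ± 0.04 and 3.08 ± 0.07 (0.21, SE 0.05, adjusted p = 0.0213). Both are chitinase-like genes of the same stretch of chromosome 3 as Chia1, Chil3 and Chil4, and both means lie under the negative control medians in each genotype. Neither was tested when dim genes were left out. The Chil6 call was lost on leaving out male WT 2 (adjusted p = 0.0657), null male 2 (0.0641) or null female 1 (0.0688). The lysosomal enzyme gene Ctbs, Chid1 and the oviduct glycoprotein gene Ovgp1 were not called. In the order of the RefSeq gene table Chia1, Chil3 and Chil4 follow each other directly, and Chit1 and Chil1 have 1 non-coding gene between them on chromosome 1. Of 21 other genes within 5 places of a member, 9 were measured and 3 rose: Chil5, Chil6 and the small nuclear RNA gene Gm24517 (0.37, adjusted p = 0.0052). The protein-coding neighbours Dennd2d (-0.09) and Cept1 (0.07) of the Ym genes were not called, nor was Mybph (-0.63, adjusted p = 0.0607), a muscle gene beside Chil1. No neighbour was called lower, but 1 was without female WT 2, with the replicate block, with no sex term, with array weights and under either filter on dim genes.

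Receptors and sensors of chitin and of chitinase-like proteins included 4 that rose and none that fell among 10, with a median of 0.10. Calls over all genes were 7.04% higher and 5.98% lower, with a median of 0.013. Clec7a, which encodes dectin-1, the beta-glucan receptor that also takes part in chitin sensing, read 3.47 and 3.66 in WT males, and 4.20 and 3.57 in WT females. Null males read 5.89 and 4.76, null females 5.63 and 4.88. All null arrays lay above all WT arrays, with a difference of 1.56 (SE 0.26, adjusted p = 0.0062). Il13ra2, a receptor chain for interleukin 13 and for Chil1, rose by 0.77 (SE 0.18, adjusted p = 0.0227) from a WT mean of 3.58, under the negative controls. Its call was lost on leaving out WT male 1 (adjusted p = 0.0624), WT male 2 (0.0587) or null female 1 (0.0752). Tmem219, its partner in Chil1 binding, differed by -0.20 and was not called (adjusted p = 0.072).

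The type 2 cytokine axis, under whose control Chil3 and Chil4 are known to stand in macrophages and airway epithelium, was mostly not called. Of 18 genes measured 3 rose and none fell, with a median of 0.14. For all genes the shares were 7.04% higher and 5.98% lower, and the median 0.013. Il33, an epithelial alarmin that drives type 2 responses, read 5.47 to 6.25 in WT and 8.71 to 9.12 in null arrays (3.06, SE 0.15, adjusted p = 5.2e-06). Arg1, an enzyme of alternatively activated macrophages and also of epidermis, read 6.77 to 7.34 and 8.99 to 9.21 (2.01, SE 0.11, adjusted p = 1.37e-05). The third was Il4ra, the receptor chain shared by interleukins 4 and 13, which rose by 1.21. In all 3 genes the null arrays lay above the WT arrays, and the calls of Il33 and Arg1 held with each array left out in turn. The cytokine genes Il4, Il5, Il13, Il25 and Tslp differed by -0.04 to 0.17 and none was called. Il4, Il5 and Tslp read under the negative control medians in every array, so a difference in them was not detectable here. Retnla, often induced together with Chil3 in macrophages, read 3.63 to 4.77 in WT and 3.52 to 5.93 in null arrays, with overlapping groups (0.84, SE 0.45, adjusted p = 0.277). The count of higher genes was 5 with same-numbered mice as a replicate block and 7 without male null 2, and without male null 1 there was 1 lower gene.

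In the interleukin 17 axis and its neutrophil chemoattractants, 6 of 13 genes rose and 1 fell, with a median of 0.31. Among all genes 7.04% were called higher and 5.98% lower, with a median of 0.013. Il1b, the inflammatory cytokine, rose from 3.61 ± 0.22 to 5.83 ± 0.87 (2.22, SE 0.37, adjusted p = 0.0057), and Cxcl1, a neutrophil chemokine, from 4.51 ± 0.11 by 1.19 (SE 0.21, adjusted p = 0.008). Il17rb, a receptor chain of this family, fell by 0.27 (adjusted p = 0.0325). That call survived only the removal of male WT 1 or female null 2, and the removal of any of the other 6 arrays gave adjusted p-values of 0.0561 to 0.102. Il17a and Il17f differed by -0.03 and 0.04 and read under the negative controls in the mean of WT arrays. The WT mean of 8 of the 13 genes was under the lowest negative control median, so sizes are not exact.

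**Figure D4:**
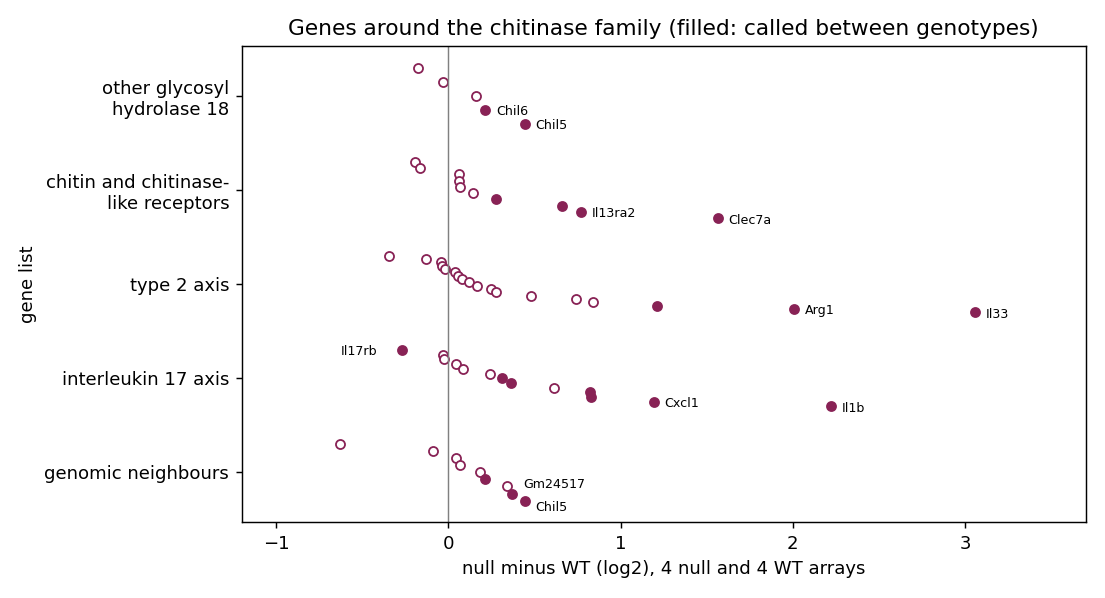
Difference between null and WT signal (log2, horizontal axis) of each measured gene in 5 lists, 1 row of points per list, filled where the gene was called in the fit over all genes. Il33, Il1b, Arg1 and Clec7a lie farthest to the right, at 3.06, 2.22, 2.01 and 1.56, while most other genes lie within 1 of 0; Chil5 and Chil6 belong to both the first and the last list.

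The genes with the most similar profiles to each called member were found by the root mean square difference over the 8 arrays, after the mean of each gene was removed. Nearest to Chil3 was Stfa2l1, a stefin-type cysteine protease inhibitor gene, at 0.51. It also read highest among WT arrays in female WT 1 (4.82) and lowest among null arrays in female null 2 (7.51). Gsdmc2, Csta3, Sprr2f and Sprr2e followed at 0.70 to 0.76. Chil4 had no close match, since no other gene differed by as much: the nearest were Sprr2f, Csta3, Stfa1, Sprr2d and Gsdmc2, at 1.02 to 1.23. These are gasdermin, stefin and small proline-rich genes, and which cells gave their signals was not tested. For Chil1 the list was another, with the membrane serine protease gene Tmprss11g, the ceramide enzyme gene Degs2, the kallikrein gene Klk13, Tmem45b and the clade B serpin gene Serpinb3a at 0.28 to 0.33. All of these genes had every null array above every WT array, as did 10.1% of all genes. Since they were picked for likeness to members whose groups are apart, this adds no support. The likeness mostly measures an equal size of the genotype difference and was given no test.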

How the data were processed

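The authors deposited a log2 signal for each probe set on each array. Partek and RMA are named in the submitters' processing notes. Their settings, versions and the genome build: not given in the sources used here. RNA was labelled with the GeneChip WT PLUS kit, per the labels' protocols. RMA shrinks large differences, and no detection call was used. The array has 72688 probe sets, and without its 6732 controls 65956 remain. Of these, 33206 had no gene listed, and of the 32750 listed, 30604 had 1 symbol as written and 2146 several. After names were updated through gene IDs and synonyms (RefSeq table, GRCm38.p6), 31231 had exactly 1 gene and 1519 several, which were not named. The brightest probe set stood for each of 438 genes with several.

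limma 3.58.1 in R 4.3.3 fitted genotype and sex on all 8 arrays (lmFit, eBayes with intensity trend, Benjamini-Hochberg over 30683 genes, called under 0.05) and, for sex differences, 4 group means. The fits were tested on simulated data. Tables were made with pandas 2.3.3 and numpy 2.4.6 in Python 3.11.15, plots with matplotlib 3.10.9. The family and the lists were chosen with earlier results of these data known. Named were all members, Krt16, the 2 largest rises and falls among called genes of each list, and the 5 most alike profiles per called member. Among the alike profiles alone, provisional symbols, small RNAs and pseudogenes were passed over. All other genes named were chosen after their values were seen. Deviations of same-numbered mice of 1 sex from their group means correlated across genes (0.316 in males and 0.115 in females). The sample titles do not say that equal numbers mark pairs, and 2 mice per group give 1 such value per sex. A replicate block was therefore run only as an alternative. Each array is 1 mouse, arrays have no read depth, and their number limits the precision.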

Additional observations from a re-analysis of the deposited data

Results flagged for a closer look

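In 4 of 56 groups of 4 arrays (28 named genes, each genotype), 1 array stood far from the others by Dixon's criterion, which flags about 1 group in 20 by chance. Chil3 in WT arrays was 5.47 in female WT 1, with the next array at 3.31. Chil4 in null arrays was 9.35 in female null 2, with the next at 10.51, while the other 3 null arrays had an SD of 0.014. Gsdmc2 in null arrays was 7.74 in female null 2, with the next at 8.36. Csta3 in WT arrays was 3.28 in male WT 2, with the next at 3.55, all under the negative controls. Without female null 2 the genotype difference of Chil4 was 7.16, and without female WT 1 that of Chil3 was 5.08.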

How the results depend on the processing

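The differences of Chil4, Chil3, Chil1, Chia1 and Chit1 kept their sign under every alternative that could be run for them (19 to 21 each; Chia1 was too dim for both filters). Chil4 ranged from 6.21 to 7.41 and was called throughout. The count of members called stayed at 3 except in males alone, where it was 2, and in females alone, where it was 1. Chil1 was uncalled in males (1.47), and Chil3 (3.68) and Chil1 (1.48) in females. These fits hold 4 arrays. Over all genes the higher count was 795 in males and 229 in females alone and the lower count 384 and 141. Leaving out 1 array gave 1195 to 2279 higher and 838 to 1858 lower genes, against 2160 and 1836; the counts moved by over 1.5 times without male WT 1, male null 2 or female null 1 and, for the lower count, female null 2 (1105). With same-numbered mice as a replicate block, Chil4 stood at 6.81, no member changed its call, and 2535 and 2009 genes were called. The sex difference of Chil1 turned sign with median centring (-0.053) and over single arrays left out (-0.52 to 0.54), and that of Chit1 with repeated quantile normalization (0.028) and over single arrays (-0.17 to 0.11); neither was called in any of them. The causes were not tested. Signals under the negative controls limit Chil4, Chil3 in WT, Chia1, Chil5 and Chil6.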

Other observations

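Male null 2 read lower than the other null arrays in several genes, myeloid and type 2 genes among them, but not in Chil3 itself. These genes were chosen after their values were seen. Retnla read 3.52 in male null 2 against 4.70 to 5.93 in the other null arrays, and Ccl17, a chemokine of dendritic cells and macrophages, 4.41 against 4.81 to 5.50. Ngp read 3.04 against 4.91 to 5.37, and Il13ra2 3.91 against 4.11 to 4.74. Male null 2 was the lowest null array for 10 of 15 macrophage and 6 of 12 neutrophil markers. The same held for 5 of 7 mast cell and 4 of 7 fibroblast markers, so low readings there were not limited to myeloid genes. Male null 2 was, however, the highest null array for Lcn2 (7.39) of the neutrophil list and Itgam (6.68) of the macrophage list. Its Chil3 (8.32), Chil4 (10.52) and Chil1 (7.20) were not low: Chil1 was the highest of all arrays there. Female null 2, the lowest null array for Chil3, Chil4 and Chil1, was the lowest for 2 of 15 macrophage and none of 12 neutrophil markers, and for 8 of 13 genes of the interleukin 17 list and 4 of 10 keratinocyte markers.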
